A study of Mus musculus with 6 samples.

Results

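Kinesins and dyneins are motor proteins that walk along microtubules, and tubulins are the proteins from which microtubules are built. The genes described here are those whose probe carries a name beginning with Kif and a digit, Dync, Dynl, or Tuba, Tubb or Tubg and a digit, on an expression array hybridised with RNA of satellite cells, which are the resident stem cells of mouse muscle. The rule used no measured value and took 94 of 55681 probes, for 69 of 36373 genes and transcripts. The adult group held 3 samples from male C57BL/6 mice of 6 months, and the young group 3 samples from male C57BL/6 mice of 3, 2 and 3 months (replicates 1, 2 and 3). All samples were sorted as positive for integrin alpha7 and CD34 and negative for CD31, CD45, CD11b and Sca1, and no group carried a transgene or a treatment in the labels. The comparison asks how the genes of adult satellite cells differ from those of young ones in muscle at rest. How many mice went into each sample is not in the labels, which name them biological replicates, so the p-values below measure the spread between these samples.

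Mitotic kinesins build the spindle, move and align chromosomes and divide the cell between its daughters, and in other cells their mRNAs are mostly made from the late S phase to mitosis. Transport kinesins carry vesicles, organelles and mRNAs, mostly towards the plus ends of microtubules, while cytoplasmic dynein 1 carries cargo to the minus ends and dynein 2 works inside cilia. Alpha and beta tubulins form the dimers of the microtubule wall, and gamma tubulin starts new microtubules. Satellite cells of resting adult muscle are for the most part out of the cell cycle and are known to keep a primary cilium.

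Each sample was measured on 1 single-colour array, and the levels below are log2 of the signal with the 75th percentile of its array at 0. Each gene is represented by its brightest probe among those well above background on at least 3 arrays. Of the 94 probes, 89 passed and 77 were well above background on all 6 arrays, and 66 of the 69 genes could be tested. Probes well above background numbered 47552 to 49954 on the adult arrays and 41526 to 45923 on the young arrays, and among the 94 probes 87 to 89 on adult and 81 to 88 on young arrays. Levels can be compared between samples but not between probes. Every one of 15 satellite cell markers was well above background on all arrays, with summed linear levels of 170.1 to 223.7 in adult and 237.1 to 263.7 in young samples, relative to the 75th percentile. The other marker lists were not at 0. Their sums were 22.0 to 28.5 in adult and 39.7 to 56.6 in young samples for myofibres (15 of 15 markers tested), 45.2 to 56.1 in adult and 97.1 to 107.6 in young samples for fibro-adipogenic cells (11 of 12, without Pdgfra), and 379.2 to 403.5 in adult and 219.9 to 425.7 in young samples for leukocytes (14 of 15, without S100a8). Endothelial markers gave 21.0 to 29.0 in adult and 20.6 to 31.7 in young samples (12 of 12), and mural cell markers 337.1 to 416.0 in adult and 289.3 to 392.9 in young samples (12 of 12). These sums rest on their brightest genes, and single markers passed the threshold in both directions. Of the satellite cell markers 5 were lower in adult cells and none higher (7 at an unadjusted p under 0.05). Myofibre markers were lower in 4 genes and higher in 1, and fibro-adipogenic markers lower in 3 and higher in 1. Leukocyte markers were higher in 5 genes and lower in none (6 unadjusted), and endothelial markers higher in 1 and lower in none (2 unadjusted). Of all genes tested, 8.45% were lower and 20.0% higher, and 48.1% had an unadjusted p under 0.05 by limma. Leukocyte markers were dim, at a median level of -3.06. With all genes split into 4 equal classes by mean level, 32.0% were higher in the dimmest class and 23.0% in the next. Of the mural cell markers, Kcnj8, Abcc9, Pdgfrb, Higd1b and Rgs5 were higher in adult cells, by 1.87 to 3.58 on the log2 scale, and Acta2 was lower (-2.10). In these bulk samples fewer cells of a type and less RNA per cell cannot be told apart, and the part of other cells in the results below was not tested.

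Of the 66 genes tested, 9 (13.6%) were lower in adult cells and 4 (6.06%) were higher, by limma with Benjamini-Hochberg adjustment over all 32075 genes of the array and a threshold of 0.05. Over all those genes 8.45% were lower and 20.0% higher, so the share of lower genes here was above that of the array and the share of higher genes below it. Neither this nor any difference between the role groups below was tested. The counts of lower and higher genes in the groups and lists below stand beside the same 8.45% and 20.0%. The genes lower in adult cells were Kif23, Kif20a, Kif3b, Dync1h1, Dync2li1, Dynlrb1, Dynlt1c, Dynlt1f and Tubb4a, and the genes higher were Kif2a, Tubb3, Tubb4b and Tuba3b. At an unadjusted p under 0.05 there were 25 genes (37.9%), against 48.1% over all genes, which is the share beside which the other such counts stand. The median difference, adult minus young, was -0.12 over the 66 genes and 0.30 over all genes. The adult values lay wholly below the young ones in 23 genes and wholly above in 15, and the groups overlapped in 28. Over all genes adult lay below in 21.6% and above in 34.0%. The split moved with the scaling: 11 lower and 1 higher with quantile normalization (2779 and 2874 over all genes), and 28 lower and 1 higher with median scaling (8813 and 3450). With any 1 array left out, Kif23 was past the threshold in 4 of 6 fits, Tubb3 only without young replicate 2, and the 11 other genes in none. Those fits called 0 or 1 of the 66 genes lower and 0 to 2 higher, and 0.0655% to 3.93% of all genes lower and 0.854% to 20.0% higher.

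**Figure D1:**
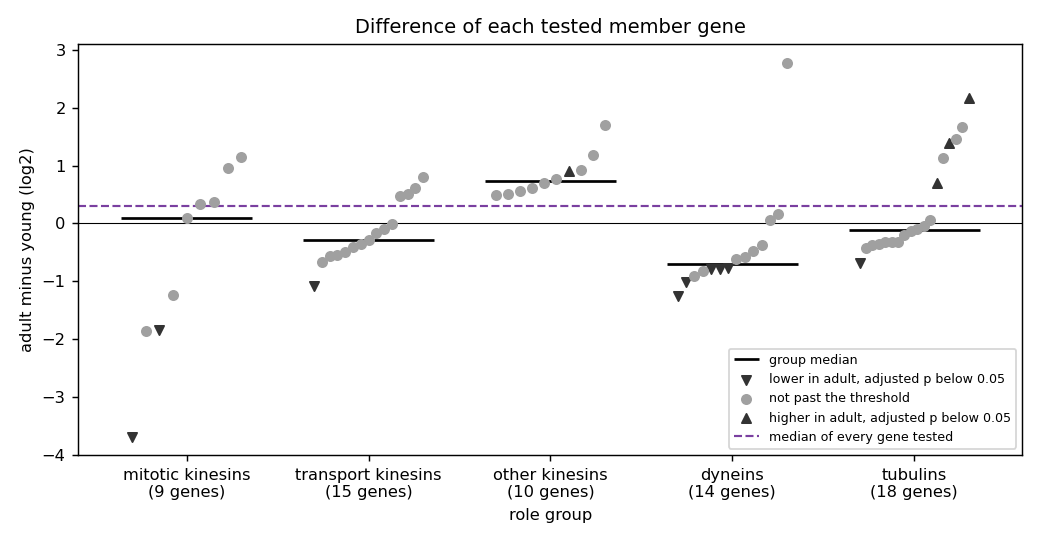
Difference between adult and young satellite cells (log2, adult minus young) for each of the 66 tested genes, arranged by role. Each point is 1 gene by its brightest probe, and triangles are genes past the adjusted threshold. Black bars are group medians and the dashed line is the median of all genes at 0.30. The other kinesins all lie above 0, 11 of 14 dyneins lie below it, and the mitotic kinesins spread from -3.69 to 1.14.

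Among the mitotic kinesins, 2 of 9 tested genes (22.2%) were lower in adult cells and none was higher. Both lower genes serve the end of division. At an unadjusted p under 0.05 there were 3 (33.3%). Their median difference was 0.10, against 0.30 over all genes, and it turned to -1.13 with quantile normalization, -0.82 with cyclic loess, -0.44 with median scaling and -0.32 with the authors' series matrix values. It was also negative with array weights (-0.48) and with only probes well above background on all arrays (-0.57, 6 genes). Without adult replicate 3, young replicate 1 or young replicate 3 it was -0.77, -0.31 and -0.48. Under the other settings it was positive, at most 0.50 (without young replicate 2). These are dim probes: with all genes split into 4 equal classes by mean level, 6 of the 9 lay in the dimmest class and 3 in the next, where 0.786% and 3.43% of all genes were lower in adult and 32.0% and 23.0% higher. By array, the median level of the 9 genes was -3.41, -4.30 and -3.44 in adult replicates 1, 2 and 3, and -3.16, -2.15 and -3.91 in young replicates 1, 2 and 3, so the groups overlapped. Over the 6 genes well above background on all arrays, the medians were -3.28, -4.15 and -3.22 in adult and -2.94, -1.86 and -3.17 in young samples. These did not overlap, but adult replicate 3 and young replicate 3 came close to each other.

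Kif23, the motor of the centralspindlin complex that organises the midzone of the dividing cell, stood at -3.41, -4.00 and -3.44 in adult replicates 1, 2 and 3 and at -0.06, 0.93 and -0.64 in young replicates 1, 2 and 3. Every adult value lay well below every young one, with the highest value in the young sample of 2 months. The gene was thus 12.9-fold lower in adult cells (log2 difference -3.69 ± 0.43 SE, limma adjusted p = 0.0140), the largest difference of the 66 genes. Without young replicate 2 the difference was -3.26 (adjusted p = 0.00552), and without adult replicate 1 or 3 the adjusted p was 0.0516 and 0.0570 at differences of -3.79 and -3.78. Its probe lies at chr9:61767492-61767732 on the minus strand of mouse build mm9, as do all probe positions below, and spans more genome than its 60 bases. Exon and UTR annotation of that build was not used here.

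Kif20a, which carries the chromosomal passenger complex to the midzone, stood at -3.16, -4.37 and -4.39 in adult replicates 1, 2 and 3, and at -2.83, -1.57 and -1.97 in young replicates 1, 2 and 3. The groups did not overlap, but adult replicate 1 and young replicate 1 came close to each other. It was 3.60-fold lower in adult cells (-1.85 ± 0.48 SE, limma adjusted p = 0.0382), and the 6 fits with 1 array left out gave adjusted p-values of 0.0584 to 0.112. With array row as a block it was -1.68 and did not pass.

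The other mitotic kinesins did not pass. Kif15, which helps to keep spindle poles apart, had -7.01, -7.01 and -4.80 in adult and -4.03, -5.28 and -3.91 in young samples, and was well above background on only 1 adult array (difference -1.87 ± 0.72 SE, limma adjusted p = 0.0897). Kif22, a motor on chromosome arms, had -3.97, -4.30 and -3.06 in adult and -2.65, -1.50 and -3.45 in young samples (-1.24 ± 0.57 SE, limma adjusted p = 0.134). Kif2b, a kinesin that shortens microtubules, differed the other way, at -1.72, -3.44 and -2.20 in adult and -4.78, -3.12 and -2.90 in young samples (1.14 ± 0.66 SE, limma adjusted p = 0.206). In all 3 genes the groups overlapped. Kif11, the motor that pushes spindle poles apart, spread over -5.94 to -2.08 in adult and -7.17 to -1.80 in young samples, wider than any difference of the groups. Kif2c, Kif4 and Kif18b differed by 0.33, 0.10 and 0.38. Kif14, Kif18a and Kif20b were too dim to test, since they were well above background on 0, 0 and 1 of the 6 arrays.

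**Figure D2:**
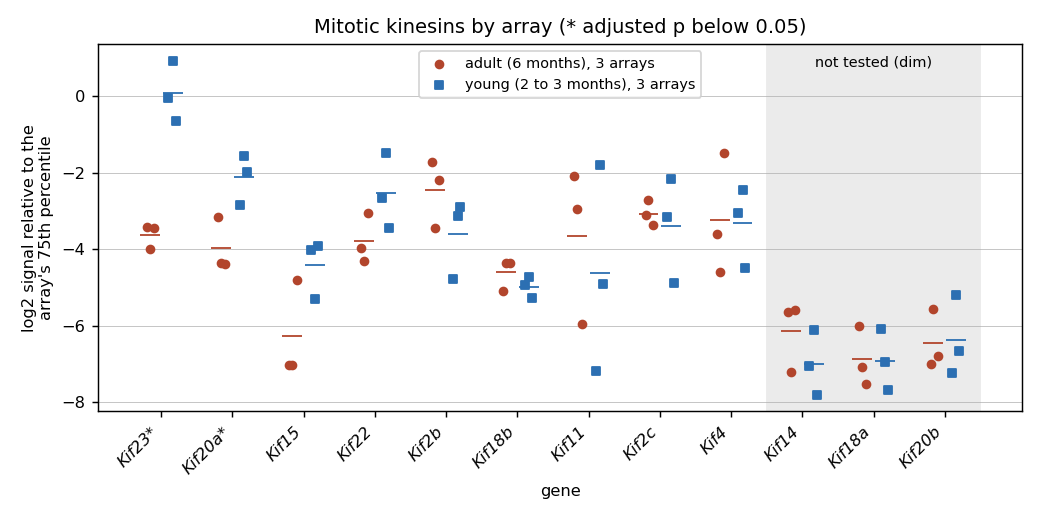
Level of the 12 mitotic kinesins on each array (log2, 75th percentile of the array at 0), adult samples left of young samples within each gene, with bars at the group means. Kif23 is the gene whose groups stand far apart, at a mean of -3.62 in adult and 0.07 in young samples, and the 3 genes in the shaded field were not tested.

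Of 28 tested genes in a list of other spindle and cytokinesis factors, 5 were lower in adult cells and 1 was higher, with a median difference of -0.62 (13 at an unadjusted p under 0.05). Mki67, a coat protein of mitotic chromosomes and the usual marker of cycling cells, had -2.29, -2.77 and -2.39 in adult and 1.30, 2.01 and 0.30 in young samples, which do not overlap (-3.69 ± 0.45 SE, limma adjusted p = 0.0151). A dimmer probe of Mki67 gave 0.07. Birc5, a subunit of the chromosomal passenger complex, was lower by all 3 of its probes, at -2.14, -4.31 and -2.91. Prc1, which bundles the midzone microtubules on which Kif23 and Kif20a act, differed by -2.59 (adjusted p = 0.0275), and was dim in adult cells, above the background limit on 2 of their 3 arrays. Hmmr, a spindle and hyaluronan-binding protein, was higher in adult cells, at 6.02, 5.76 and 5.96 against 4.76, 4.97 and 4.66 in young (1.12 ± 0.19 SE, limma adjusted p = 0.0217).

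The promoters of mitotic genes are known for CCAAT boxes and for the cell cycle homology region, a short element through which these genes are kept off outside of division. Promoters were read from RefSeq (build GRCm38.p6) as the 250 bases before the gene's start, without the bases after it, and 56 of the 69 genes matched. They were searched on both strands for the CCAAT box (CCAAT), the homology region (TTTGAA or TTTAAA) and the GC box (GGGCGG). Where 2 motifs overlapped, both were counted. The promoters of Kif23, which had the largest difference, and of Kif22, which holds both elements, are shown with CCAAT boxes and homology regions of either strand in capitals. They lie at chr9:61946800-61947049 and chr7:127042421-127042670, both on the minus strand.
Kif23: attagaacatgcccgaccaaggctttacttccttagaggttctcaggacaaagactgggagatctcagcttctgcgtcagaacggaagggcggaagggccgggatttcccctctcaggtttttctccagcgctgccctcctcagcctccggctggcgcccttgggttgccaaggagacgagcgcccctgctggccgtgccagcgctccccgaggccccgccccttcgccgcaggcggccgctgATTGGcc
Kif22: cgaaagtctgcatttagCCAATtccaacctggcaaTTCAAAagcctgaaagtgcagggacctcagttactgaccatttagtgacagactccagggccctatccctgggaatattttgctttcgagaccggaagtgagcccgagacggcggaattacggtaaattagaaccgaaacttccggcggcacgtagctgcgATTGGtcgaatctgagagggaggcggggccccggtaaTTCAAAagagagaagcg
Kif23 has 1 CCAAT box, at position -7 counted from the base before the start as -1, and no match to the homology region, while Kif22 has CCAAT boxes at -233 and -54 and homology regions at -215 and -17. The CCAAT box was found in 7 of 11 mitotic kinesin promoters (63.6%), against 33.8% of all 32851 promoters, the homology region in 5 (45.5%, against 25.2%) and both in 3 (27.3%, against 8.78%). Transport kinesins had the CCAAT box in 4 of 13 promoters and the homology region in 1. Of the 8 promoters of genes lower in adult cells, in any role group, 3 held the CCAAT box and 0 the homology region. Of the 5 promoters of genes higher in adult cells, 3 held the CCAAT box and 2 the homology region. These shares describe letters and were not tested.

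Among the transport kinesins 1 of 15 genes (6.67%) was lower in adult cells, none was higher, and 3 (20.0%) had an unadjusted p under 0.05. The median difference was -0.29, which is 0.59 below that of all genes, with 11 genes below 0 and 4 above. The adult values lay below the young ones in 6 genes and above in 2. Over all genes these shares were 21.6% and 34.0%, and 55.6% in either direction. The median was negative under each scaling and with each array left out. Kif3b, a motor subunit of heterotrimeric kinesin 2, which carries cargo into cilia, stood at -1.57, -2.33 and -2.17 in adult replicates 1, 2 and 3 and at -0.98, -0.63 and -1.22 in young replicates 1, 2 and 3. The groups do not overlap, and the gene was 2.11-fold lower in adult cells (-1.08 ± 0.28 SE, limma adjusted p = 0.0400). Its partner Kif3a had 0.71, 0.74 and 0.76 in adult and 0.92, 0.99 and 1.16 in young samples (-0.29 ± 0.17 SE, limma adjusted p = 0.216).

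Kif1c, a fast kinesin 3 that carries vesicles and mRNAs, had 1.72, 1.89 and 1.40 in adult and 2.26, 2.32 and 2.42 in young samples, just short of the threshold (-0.66 ± 0.20 SE, limma adjusted p = 0.0535). Kif5a, a heavy chain of conventional kinesin known from neurons, ran the other way, at -1.79, -1.67 and -2.05 in adult and -2.86, -2.84 and -2.23 in young samples (0.81 ± 0.25 SE, limma adjusted p = 0.0545). Its probe is the one printed 10 times on the array, and the SD between those spots was 0.0673 to 0.206. The heavy chains Kif5b and Kif5c differed by -0.49 and 0.61, with overlapping groups. Kif13b, a kinesin 3 of vesicle transport, had -1.24, -1.16 and -1.27 in adult and -0.995, -0.75 and -0.31 in young samples (-0.54 ± 0.23 SE, limma adjusted p = 0.112). The remaining transport kinesins lay between -0.57 (Kif21b) and 0.51 (Kif1a).

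The other kinesins were the group with every difference above 0 by the brightest probe, in 10 of 10 genes. Only 1 passed the threshold, and 4 (40.0%, against 48.1% over all genes) had an unadjusted p under 0.05. Dimmer probes of Kif2a (-0.44 and -0.64) and Kif7 (-0.23) lay below 0, while those of Kif26a, Kif6 and Kif9 that passed the filter lay above it. By the brightest probes the median difference of the group was 0.73, which is 0.43 above that of all genes. The adult values lay wholly above the young ones in 7 genes, against 34.0% over all genes. By array, the median level of the 10 genes was -0.32, -0.58 and -0.21 in adult replicates 1, 2 and 3, and -1.10, -0.69 and -1.21 in young replicates 1, 2 and 3, which do not overlap. The median kept its sign under each scaling, while 8 of the 10 genes did. Several of these kinesins belong to cilia: Kif7 conducts Hedgehog signals there, Kif19a and Kif24 trim microtubules at the cilium, and Kif6, Kif9 and Kif27 are known from motile cilia.

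Kif19a had 2.23, 1.74 and 1.63 in adult and 1.55, 1.17 and 0.78 in young samples (0.70 ± 0.28 SE, limma adjusted p = 0.102). Kif26b, a kinesin of tissue shaping with little motor activity, had -0.23, -1.04 and -1.05 in adult and -1.67, -2.78 and -1.45 in young samples (1.19 ± 0.43 SE, limma adjusted p = 0.0786), and its relative Kif26a had -2.58, -2.29 and -2.61 in adult and -2.82, -3.02 and -3.19 in young samples (0.52 ± 0.20 SE, limma adjusted p = 0.0915). In all 3 the adult values lay above the young ones, without reaching the threshold. Kif7, Kif24, Kif9, Kif6, Kif12 and Kif27 differed by 0.57, 0.49, 0.92, 0.77, 0.61 and 1.71.

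Kif2a, a kinesin 13 that shortens microtubules at spindle poles and at the cilium, was the gene of this group past the threshold. It stood at 2.14, 1.53 and 1.73 in adult replicates 1, 2 and 3 and at 0.84, 1.03 and 0.79 in young replicates 1, 2 and 3, which do not overlap, and was 1.88-fold higher in adult cells (0.91 ± 0.22 SE, limma adjusted p = 0.0354). With median scaling the difference was 0.37 and did not pass (limma adjusted p = 0.241). Its 2 other probes had differences of the opposite sign, -0.44 and -0.64, with adjusted p of 0.266 and 0.0839 over all probes, and the mean of the 3 probes gave -0.06. The start of each of the 3 probes is shown, since they read different stretches of the gene: the first 30 bases of the 60, on the minus strand of mm9, at chr13:107751340-107751399, chr13:107772727-107773291 and chr13:107751949-107752008.
Kif2a probe used for the gene (0.91): gaggagttttattttaggataatacatata
Kif2a probe across a wider stretch (-0.44): acgaccactcaataaaaaagaaactcaaat
Kif2a nearby probe (-0.64): ccaagaggcacaactaataattcggactag
Kif3b showed the same kind of disagreement. Its second probe had -1.41, -1.27 and -1.51 in adult and -1.94, -1.64 and -1.70 in young samples, so the adult values lay above the young ones (0.36, adjusted p = 0.186 over all probes). With the mean of both probes the difference of Kif3b was -0.36 and did not pass, nor did it with scaling to the probes that every array detected (-0.94) or array row as a block (-0.89). The first 30 bases of its probes at chr2:153155905-153155964 and chr2:153157054-153157113, plus strand, are as follows.
Kif3b probe used for the gene (-1.08): cccaggatgggaacagcattgtcttctgag
Kif3b second probe (0.36): gtccacacctcctgtttacatagactagtt
None of these 5 probes shared a run of 16 bases with a probe of another name.

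Over all genes described here, 19 had more than 1 probe that passed, and in 6 of them (Kif1c, Kif3b, Kif2a, Kif7, Dync1i1 and Tubb2b) the probes differed in sign. Single probes passed where the gene's brighter probe did not, beside 23.4% of all probes (6.39% lower and 17.1% higher). The dimmer probe of Kif2c was at -3.15, -2.13 and -3.21 in adult and -6.19, -4.84 and -5.43 in young samples (2.66 ± 0.46 SE, limma adjusted p = 0.0244 over all probes), while the brighter one gave 0.33. Kif17, a kinesin of cilia and dendrites, gave 1.71 by its dimmer probe (adjusted p = 0.0249) and 0.47 by its brighter one. The dimmer probe of Kif26a was not well above background on any young array, so it met the filter only through the adult arrays, where it is high. Its limma adjusted p of 0.0232 is therefore not independent of the filter. It was at least 2.25-fold higher in adult cells, where the bound sets the adult mean against the background floor of the young arrays. Tuba1b was lower in adult cells by its dimmer probe (-0.84, adjusted p = 0.0312) and gave -0.36 by its brighter one.

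**Figure D3:**
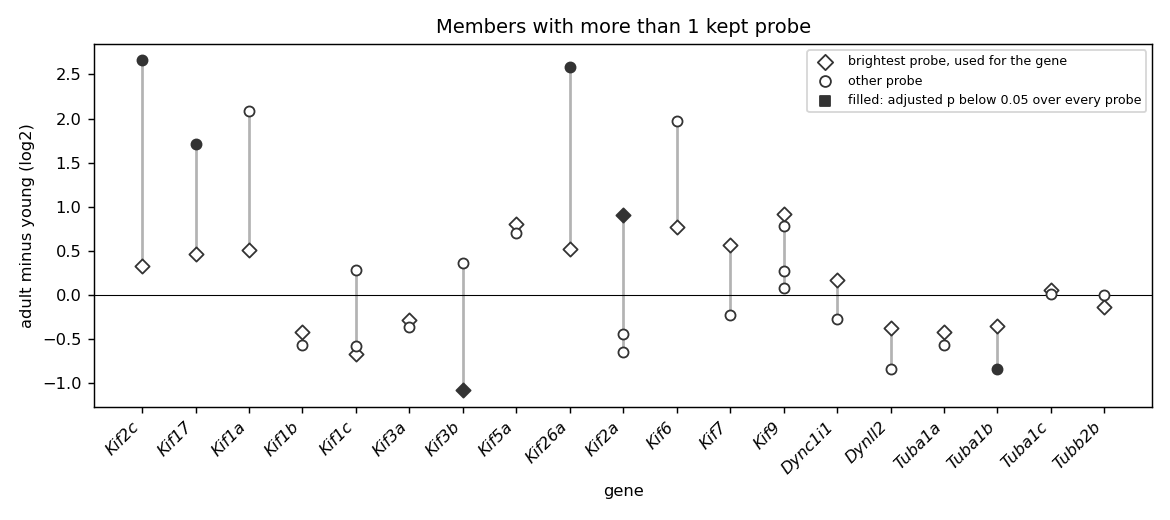
Difference (log2, adult minus young) of every passing probe for the 19 genes with more than 1. Diamonds are the brightest probe of each gene, circles are its other probes and filled marks are past the threshold over all probes. The probes of Kif2a run from -0.64 to 0.91 and those of Kif2c from 0.33 to 2.66.

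Among the cytoplasmic dyneins 5 of 14 (35.7%) were lower in adult cells, none was higher, and 8 (57.1%, against 48.1% over all genes) had an unadjusted p under 0.05. The median difference was -0.70. Adult values lay below young ones in 9 genes and above in 1, against 21.6% and 34.0% over all genes. By array, the median level of the 14 genes was -0.08, -0.08 and -0.47 in adult replicates 1, 2 and 3, and 0.60, 0.62 and 0.42 in young replicates 1, 2 and 3, which do not overlap. The median stayed negative under each scaling and with each array left out. Of the 14 genes, 11 lay in the upper 2 of the 4 classes by mean level, where 10.6% and 18.9% of all genes were lower in adult.

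Dync1h1, the heavy chain that holds the motor of dynein 1, stood at 0.56, 0.59 and 0.45 in adult replicates 1, 2 and 3 and at 1.30, 1.32 and 1.35 in young replicates 1, 2 and 3. Within each group the values were close, and the groups lay far apart beside that spread (-0.78 ± 0.16 SE, 1.72-fold lower in adult, limma adjusted p = 0.0275). With cyclic loess the difference was -0.56 and did not pass. The intermediate chain Dync1i2, which ties the heavy chain to dynactin, had 2.70, 2.63 and 2.33 in adult and 3.01, 3.14 and 3.38 in young samples (-0.62 ± 0.20 SE, limma adjusted p = 0.0624). The probe of Dync1h1 lies at chr12:111904896-111904955, on the plus strand. The light intermediate chains, which bind cargo adaptors, ran in the same direction without passing, with differences of -0.59 ± 0.25 (Dync1li1) and -0.48 ± 0.24 (Dync1li2), both with adult values wholly below young ones. Dync1i1, known as the neuronal intermediate chain, differed by 0.17.

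The RefSeq promoter of Dync1h1 is shown as that of a dynein gene lower in adult cells, at chr12:110601145-110601394 on the plus strand of GRCm38.p6. It holds no CCAAT box and no homology region, hence no capitals.
Dync1h1: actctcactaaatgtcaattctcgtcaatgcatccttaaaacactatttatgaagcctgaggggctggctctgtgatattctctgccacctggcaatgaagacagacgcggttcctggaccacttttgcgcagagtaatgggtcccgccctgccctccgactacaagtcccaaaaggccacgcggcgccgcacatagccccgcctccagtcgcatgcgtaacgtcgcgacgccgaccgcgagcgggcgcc
It does hold 1 GC box, which was found in 10 of 13 dynein promoters (76.9%) and in 32.7% of all promoters. The GC box was in 7 of the 8 promoters of 7 genes lower in adult cells, and in 4 of 5 promoters of 4 genes higher. Dynlrb1 and Kif2a each gave more than 1 of these promoters, and Kif20a and Dync2li1 had none to search. Mitotic, transport and other kinesins had the GC box in 6 of 11, 8 of 13 and 7 of 11 promoters, and tubulins in 7 of 14.

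Of dynein 2, the motor that returns cargo from the tip of the cilium, the light intermediate chain Dync2li1 stood at -1.89, -1.38 and -1.78 in adult replicates 1, 2 and 3 and at -0.97, -0.89 and -0.88 in young replicates 1, 2 and 3. Its probe spans chr17:85044132-85046639 on the plus strand. The gene was 1.71-fold lower in adult cells, with no overlap (-0.77 ± 0.20 SE, limma adjusted p = 0.0400), and did not pass with scaling to the probes that every array detected (-0.63), array weights (-0.67) or array row as a block (-0.83). The heavy chain of the same motor, Dync2h1, gave 1.33, 1.78 and 0.79 in adult and 0.95, 1.21 and 1.53 in young samples, which overlap (0.07 ± 0.31 SE, limma adjusted p = 0.871).

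Among the dynein light chains, which hold the complex together and bind cargo, 3 of 7 were lower in adult cells. Dynlrb1, of the roadblock family, stood at -0.72, -0.53 and -0.84 in adult replicates 1, 2 and 3 and at 0.29, 0.61 and 0.04 in young replicates 1, 2 and 3, 2.02-fold lower in adult (-1.01 ± 0.22 SE, limma adjusted p = 0.0290). Dynlt1c, of the Tctex family, had -2.51, -1.67 and -1.53 in adult and -0.79, -0.50 and -0.65 in young samples (-1.26 ± 0.30 SE, limma adjusted p = 0.0343). Dynlt1f, of the same family, had 2.45, 2.78 and 2.89 in adult and 3.70, 3.44 and 3.35 in young samples (-0.79 ± 0.21 SE, limma adjusted p = 0.0409). In none of these 3 genes did the groups overlap. The probes lie at chr2:155075949-155076008 (Dynlrb1), chr17:6812527-6812586 (Dynlt1c) and chr17:6606983-6607042 (Dynlt1f), all on the plus strand. The Dynlt1 genes are near-identical copies on chromosome 17, and the Dynlt1f probe shares a run of 46 bases with the probe of an unnamed transcript, so that which copy was read is uncertain. For the Dynlt1c and Dynlt1f probes alike the files list accessions of Dynlt1a, Dynlt1c and Dynlt1f. The second is named Dynlt1e in the files and Dynlt1f by its accession, while RefSeq places Dynlt1f on the minus strand, opposite to the probe. The call of Dynlt1f was lost with quantile normalization (-0.56), cyclic loess (-0.54), the authors' series matrix values (-0.47), scaling to the probes that every array detected (-0.65) and array row as a block (-0.82), and that of Dynlrb1 with array row as a block (-0.95).

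Dynlt3, the remaining Tctex chain, had 1.92, 1.84 and 0.90 in adult and 2.34, 2.28 and 2.53 in young samples (-0.83 ± 0.31 SE, limma adjusted p = 0.0888). Dynll1 and Dynll2, the light chains shared with many other complexes, differed by -0.91 and -0.38 with overlapping groups. A dimmer probe of Dynll2 gave -0.84, with adult values wholly below young ones (limma adjusted p = 0.0956 over all probes). Dynlrb2, the second roadblock chain, known from testis and ciliated tissue, ran against the group. It had -4.04, -3.47 and -2.11 in adult and -5.45, -4.66 and -7.85 in young samples, and was well above background on 1 young array (2.78 ± 0.92 SE, limma adjusted p = 0.0646). Without young replicate 2 it passed (adjusted p = 0.0451).

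**Figure D4:**
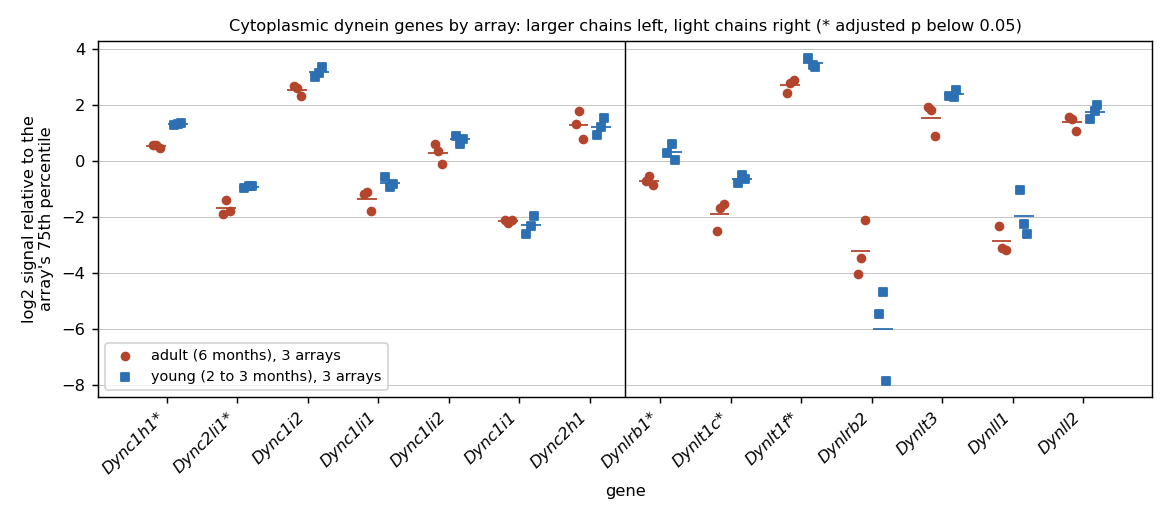
Level of the 14 cytoplasmic dynein genes on each array (log2, 75th percentile of the array at 0). Larger chains are left of the vertical line and light chains right of it, with adult samples left of young samples within each gene. Bars are group means, and a star marks the 5 genes past the threshold, whose adult samples all sit below the young ones.

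Dynactin subunits and regulators of dynein gave 3 lower and 1 higher gene of 19 tested, with a median difference of -0.26 (12 at an unadjusted p under 0.05). Dctn2, the dynactin subunit that links its arm to the filament, had 0.12, 0.35 and -0.11 in adult and 1.49, 0.996 and 1.39 in young samples (-1.17 ± 0.23 SE, limma adjusted p = 0.0256). Nde1, which tethers the dynein regulator Lis1, and Actr1a, the actin-like protein of the dynactin filament, were lower with differences of -1.06 and -0.79, and in neither did the groups overlap. Bicd1, a cargo adaptor, was higher in adult cells (1.78 ± 0.50 SE, limma adjusted p = 0.0464). Axonemal dyneins, the motors of beating cilia, had 12 of 17 genes bright enough to test, with 1 lower and 3 higher and a median of 0.80. Over all genes 8.45% were lower and 20.0% higher. The median level of the axonemal dyneins, -2.37, lay in the class next to the dimmest. In that class 23.0% of all genes were higher and the median difference was 0.55. Dnah11 was lower (-1.30), and Dnali1, Dnah7b and Dnah8 were higher by 1.04, 1.13 and 2.25, with Dnah8 well above background on 1 young array. Among kinesin light chains, adaptors and C-terminal kinesins, 1 of 13 was lower, Rhot2, which anchors motors to mitochondria (-0.74, limma adjusted p = 0.0312), while its second probe gave -0.10. Klc1, Rhot1 and Trak1 had differences of -0.57, -0.59 and -0.36 by their brightest probes, which did not pass. The dimmer probe of Trak1 gave -0.76 and passed (limma adjusted p = 0.0436 over all probes). Those of Klc1 and Rhot1 gave -0.32 and -0.22 and did not pass.

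Of the 18 tubulin genes, 1 (5.56%) was lower in adult cells, 3 (16.7%) were higher and 7 (38.9%, against 48.1% over all genes) had an unadjusted p under 0.05. The median difference was -0.12, which is 0.42 below that of all genes. It turned positive with quantile normalization, cyclic loess, the series matrix values and scaling to the probes that every array detected, by at most 0.09, and without adult replicate 3 (0.0082). Adult values lay below young ones in 6 genes and above in 5, against 21.6% and 34.0% over all genes. Most of the tubulins are bright, with 12 of 18 in the brightest of the 4 classes by mean level. In that class the median difference over all genes was -0.31, below that of the tubulins, and 18.9% were lower and 10.3% higher. The alpha tubulins Tuba1a, Tuba1b, Tuba4a and Tuba1c differed by -0.42, -0.36, -0.32 and 0.06, none past the threshold. The beta tubulins Tubb2a, Tubb2b, Tubb6 and Tubb5 differed by -0.37, -0.14, -0.19 and -0.10, none past it either. Tubb2a-ps2, a pseudogene by its name and counted among the 18, differed by -0.32 and did not pass.

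The 4 tubulins past the threshold were Tubb3, Tubb4a, Tubb4b and Tuba3b, with probes at chr8:125945850-125945909 (plus strand), chr17:57220455-57220514 (minus), chr2:25077678-25077719 (minus) and chr6:145569930-145569989 (plus). Tubb3, the beta tubulin used as a marker of neurons, stood at -0.76, -1.23 and -1.53 in adult replicates 1, 2 and 3 and at -2.45, -2.52 and -2.74 in young replicates 1, 2 and 3. Every adult value lay above every young one, and the gene was 2.64-fold higher in adult cells (1.40 ± 0.25 SE, limma adjusted p = 0.0236). With quantile normalization it was 0.92 and did not pass, and with 1 array left out the adjusted p was 0.0304 to 0.0626. Summed markers of Schwann cells and neurons (14 of 15 tested, without Syt1) were 378.6 to 406.9 in adult and 285.4 to 384.0 in young samples, with Gfap, Nefl and Nefm higher in adult. Of those 14 markers Ngfr and Ncam1 were lower in adult cells (-1.09 and -0.65). Their part in the level of Tubb3 was not tested. Tubb4a, a beta tubulin of brain, stood at 0.84, 1.13 and 1.03 in adult and 1.82, 1.67 and 1.55 in young samples, with no overlap (-0.68 ± 0.18 SE, 1.60-fold lower, limma adjusted p = 0.0423). It lost its call with quantile normalization, cyclic loess, the series matrix values and scaling to the probes that every array detected, at differences of -0.54 to -0.42, and with array row as a block (-0.69), without the filter or with every probe tested separately (-0.68 each).

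Tubb4b, a beta tubulin made in most cells and abundant in cilia, was among the brightest probes, at 6.92, 6.64 and 6.58 in adult replicates 1, 2 and 3 and 6.22, 5.99 and 5.81 in young replicates 1, 2 and 3. It was 1.63-fold higher in adult cells, with no overlap (0.71 ± 0.20 SE, limma adjusted p = 0.0477), and it did not pass with median scaling (0.17), with quantile normalization (0.58), without the filter on dim probes or with every probe tested separately (0.71 each). Its RefSeq promoter, at chr2:25224703-25224952 on the minus strand of GRCm38.p6, is shown for its density of CCAAT boxes, in capitals with 1 homology region.
Tubb4b: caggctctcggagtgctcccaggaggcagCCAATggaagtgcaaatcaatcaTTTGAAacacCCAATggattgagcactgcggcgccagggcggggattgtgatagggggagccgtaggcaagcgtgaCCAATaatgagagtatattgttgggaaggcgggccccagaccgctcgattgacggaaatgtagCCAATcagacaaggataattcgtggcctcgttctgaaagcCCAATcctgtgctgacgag
The 5 CCAAT boxes lie at -221, -188, -122, -59 and -19, and the homology region at -198. Over the tubulins, 7 of 14 promoters held a CCAAT box.

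Tuba3b, an alpha tubulin known from testis, stood at -4.54, -2.84 and -2.85 in adult replicates 1, 2 and 3 and at -6.58, -4.96 and -5.20 in young replicates 1, 2 and 3, and was well above background on 2 young arrays (2.17 ± 0.64 SE, limma adjusted p = 0.0498). The groups did not overlap, yet adult replicate 1 was nearer to young replicate 2 than to the other adult samples. Its probe shares 28 bases in a run with those of Tuba3a, which had -2.92, -1.63 and -1.63 in adult and -2.83, -3.24 and -3.52 in young samples (1.13 ± 0.42 SE, limma adjusted p = 0.0815), so these copies may not be told apart. The call of Tuba3b was lost with quantile normalization, cyclic loess, median scaling, the series matrix values and array row as a block, where it was 0.38 to 1.79, and without the filter or with every probe tested separately (2.17 each). Tuba8, known from muscle and testis, had -3.07, -1.20 and -1.74 in adult and -3.87, -3.07 and -4.05 in young samples (1.66 ± 0.54 SE, limma adjusted p = 0.0615). Tubb1, the beta tubulin of platelets, had -2.34, -2.12 and -2.20 in adult and -4.88, -3.10 and -3.05 in young samples (1.46 ± 0.52 SE, limma adjusted p = 0.0751). In both the adult values lay wholly above the young ones, short of the threshold. Tuba3b lay in the dimmest of the 4 classes by mean level, and Tubb3, Tuba8 and Tubb1 in the next. In these classes 32.0% and 23.0% of all genes were higher in adult cells, with median differences of 1.44 and 0.55. Tubg1, of the ring complex that starts microtubules, and its close relative Tubg2 differed by -0.31 and -0.04.

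**Figure D5:**
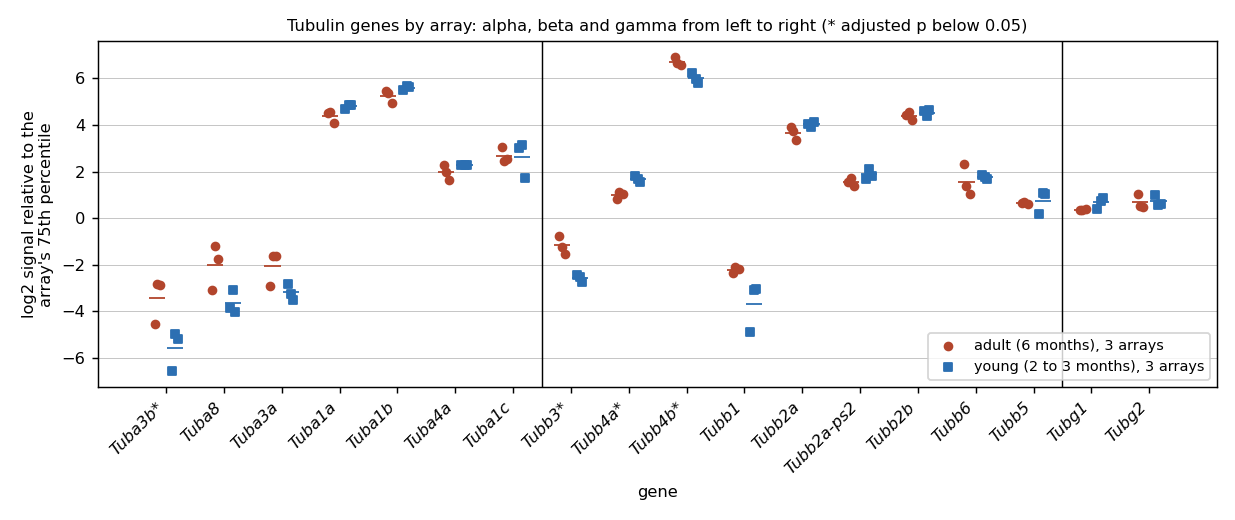
Level of the 18 tubulin genes on each array (log2, 75th percentile of the array at 0), alpha, beta and gamma from left to right, adult samples left of young samples within each gene, bars at the group means. Adult samples sit above young ones in the dim genes Tuba3b, Tuba8, Tubb3 and Tubb1 and in the bright Tubb4b, and below them in Tuba1a, Tuba1b, Tuba4a, Tubb2a, Tubb4a and Tubg1.

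Genes that fold, modify or nucleate tubulin were lower in adult cells in 6 of 24 cases and higher in none, with a median difference of -0.61 (10 at an unadjusted p under 0.05). Svbp, the partner of the enzymes that remove the last tyrosine of alpha tubulin, had -2.14, -1.72 and -2.39 in adult and 0.10, -0.24 and -0.05 in young samples (-2.02 ± 0.24 SE, limma adjusted p = 0.0142). A second Svbp probe, almost as bright, gave a smaller difference of -0.88 and did not pass (limma adjusted p = 0.0576 over all probes). Its adult values also lay wholly below the young ones. Tbcb, a chaperone of alpha tubulin, had -0.62, 0.34 and -0.52 in adult and 1.45, 1.22 and 1.24 in young samples (-1.57 ± 0.30 SE, limma adjusted p = 0.0252). Tbce and Tbcc, which join alpha and beta tubulin, were lower with differences of -0.79 and -0.97. In none of these 4 genes did the groups overlap. Microtubule-associated and severing proteins gave 4 lower and 1 higher gene of 25, with a median of -0.17. Stmn1, which binds free tubulin dimers and is high in proliferating cells, stood at 0.43, 0.33 and 0.95 in adult replicates 1, 2 and 3 and 2.32, 3.56 and 2.66 in young replicates 1, 2 and 3 (-2.28 ± 0.37 SE, limma adjusted p = 0.0213). Macf1, which links microtubules to actin, and Map1lc3b, a protein of autophagosomes, were lower with differences of -0.71 and -0.72, while Stmn4, a neuronal relative of Stmn1, was higher by 1.02 (limma adjusted p = 0.0243).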

How the data were processed

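Satellite cells of 3 adult and 3 young samples were measured on 6 single-colour Agilent arrays of 62976 spots, all on 1 slide. Per the labels' protocols, whole transcriptome amplification preceded Cy3 labelling. Per the file headers, the deposited intensity values came from Feature Extraction 10.7.3.1, background-subtracted and not scaled between arrays. How the authors made the deposited series matrix, in log2 values, is not given in these sources. Its median was 7.56 in each column, and it differed by at most 0.000106 from normexp (offset 50) with quantile normalization.

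From these, 3671 control spots and outlier spots (113 to 196 an array) were left out, no spot was saturated, spots of 1 probe were averaged, and log2 of the processed signal minus the array's 75th percentile was taken. A probe was kept if well above background on 3 or more arrays, and each gene took its brightest probe. Gene names followed the GRCm38.p6 annotation by accession (26300 probes), current symbol (2044) or older symbol (355), and 26982 kept the name in the files. Tubb4, Tubb2c and Dynlt1e became Tubb4a, Tubb4b and Dynlt1f. limma 3.58.1 (R 4.3.3) compared adult with young over all genes, two-sided, with Benjamini-Hochberg adjustment, and was tested on simulated data. The number of arrays limits the precision.

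The members, role groups, pathway lists and marker lists were chosen with earlier results of these data known. Values are given for members past 0.05, for up to 3 more of each role group and for up to 4 genes of each list with the smallest p; other members are given by their differences. Alternatives covered scaling, background correction, filter, probe choice, variance model, array weights, blocks and leaving out each array. Deviations of same-numbered samples correlated by -0.00229, -0.0936 and -0.142, so the numbers were not taken to pair the samples.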

Additional observations from a re-analysis of the deposited data

How the results depend on the processing

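The 13 called genes kept their direction in 258 of 259 values under other settings, 138 of them past the threshold; the mean of all probes turned Kif2a to -0.057. Leaving out 1 array kept 5 of 78 calls. It gave 295 to 7689 called genes over the array (21 to 1262 lower, 274 to 6427 higher), 0 to 1 lower and 0 to 2 higher members, 0 to 1 mitotic kinesins, dyneins and tubulins, and 0 transport and other kinesins. The replicate number as a block gave 0 calls in all these counts (12728 genes and 20 members at an unadjusted p under 0.05 by limma); samples share only a number. Array row as a block gave 5971 called genes (1201 lower), with 3 lower members, 1 mitotic, 0 transport and 2 other kinesins, 2 dyneins and 2 tubulins. Over all genes the median difference lay between -0.24 (median scaling) and 0.45 (probes above background on all arrays).

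Quantile normalization gave 5653 genes (2874 higher), with 1 higher member, 5 mitotic kinesins lower, 2 transport kinesins and 0 tubulins (18 tested). Median scaling gave 8813 lower and 3450 higher genes, with 28 lower members, 1 higher, 4 mitotic, 7 transport and 0 other kinesins, 10 dyneins and 8 tubulins. Cyclic loess gave 5276 genes (3130 higher), with 4 mitotic and 2 transport kinesins, 3 dyneins and 2 tubulins. Scaling on probes above background everywhere gave 1784 lower genes, 5 lower members and 3 dyneins. Normexp gave 4130 lower genes, 10 higher members, 3 transport and 2 other kinesins, 8 dyneins and 7 tubulins. The series matrix gave 4118 lower genes, 4 transport and 2 other kinesins and 2 tubulins. Trend and robust moderation gave 4433 lower genes, 7 higher members, 2 transport and 2 other kinesins and 8 dyneins. Array weights gave 2 transport kinesins, and the filter on all 6 arrays 3. With no filter, and with every probe separate, 2 members were higher and 1 tubulin was called. The cause of these shifts was not tested. Mitotic kinesins are limited by signal near background. With a single slide there was no slide block.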
